A study of Mus musculus with 12 samples.

Results

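The genes described here are the output factors of the circadian clock, the cell-autonomous timer of daily gene expression. They are the 3 PAR basic leucine zipper (PAR bZIP) activators Dbp, Tef and Hlf, their competitor Nfil3, the REV-ERB receptors Nr1d1 and Nr1d2, the E-box repressors Bhlhe40 and Bhlhe41, and the receptor Rora. They were taken by name: a probe set counted where its only gene symbol in the platform's table was one of these names, and all 9 were found among 19938 genes, each with 1 probe set. The match by name used no measured value. The names themselves were listed with earlier results of these data known, so the choice was not blind to those results.

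Whole-kidney RNA of mice aged 3 weeks was hybridised to 12 Affymetrix arrays in 4 groups of 3 arrays. PpargΔ/Δ mice, whose label marks a deletion in the gene of the nuclear receptor that drives fat cell formation, and their controls were of mixed C57BL6/SV129 background. AZIP mice, whose fat tissue does not form, and their controls were FVB. Each array held RNA pooled from 3 mice, so n is 3 pools a group, and p-values measure the spread between pools, not between single mice. The labels do not say which part of Pparg is missing or which Cre was used, and the Pparg probe set, at 0.11 ± 0.06 in log2 between PpargΔ/Δ and control (SE; limma adjusted p = 0.339), does not check the genotype. As background, the A-ZIP protein is an engineered dominant negative that pairs with basic leucine zipper factors of the C/EBP and JUN families, and in the best-known line it is driven by the Fabp4 promoter of fat cells. Whether it is made in kidney cells was not measured. All mice lived in 12 h of light and 12 h of dark. The time of day at collection is not given in the labels, so a difference between groups in the hour of collection and a difference in the clock cannot be told apart here.

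In the clock, BMAL1 (gene Arntl) and CLOCK bind E-boxes and switch on Per, Cry, Rev-erb and Dbp genes. REV-ERB receptors then repress, and ROR receptors activate, genes with a ROR element, among them Arntl and Nfil3. DBP, TEF and HLF activate and NFIL3 represses through a shared sequence, the D-box. Dbp and Nfil3 transcripts are known to peak at opposite times of day in liver and kidney. BHLHE40 and BHLHE41, also called DEC1 and DEC2, bind E-boxes and hold back CLOCK and BMAL1. In the kidney these factors set the daily rhythm of transporters and of enzymes that handle drugs and fatty acids.

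Start-site sequences are shown for the members in which 1 of the motifs of this circuit was found, and for Dbp. RefSeq start-site windows (GRCm38.p6; 250 bases before and 50 after each start) were matched for 8 of the 9 members, 9 windows in all, both strands searched. The stretches below end at or before the start, run 5′ to 3′ on the gene's strand, and carry the matched letters in capitals. Nfil3 is shown for the 7-letter core of the ROR element, TAGGTCA, found here on the opposite strand, from chr13:52981040-52981111, minus strand. Nr1d2 holds the shorter half-site AGGTCA, which lies within that core (chr14:18239118-18239243, minus strand). The E-box CACGTG was found in both Tef windows (chr15:81802486-81802611 and chr15:81811216-81811341, plus strand) and in Bhlhe41 (chr6:145865508-145865633, minus strand). Nr1d1 holds the related CACGTT on the opposite strand (chr11:98775378-98775465, minus strand). Dbp held none of the motifs in its window and is shown because its level fell the most (chr7:45704997-45705246, plus strand).
Nfil3: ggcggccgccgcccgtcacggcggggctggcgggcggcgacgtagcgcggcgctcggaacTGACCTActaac
Nr1d2: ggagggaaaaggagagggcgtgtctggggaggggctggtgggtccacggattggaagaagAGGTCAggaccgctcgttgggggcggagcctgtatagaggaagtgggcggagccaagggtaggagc
Tef, upstream start: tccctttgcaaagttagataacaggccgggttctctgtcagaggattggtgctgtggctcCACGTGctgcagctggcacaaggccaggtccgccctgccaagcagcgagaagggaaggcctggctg
Tef, downstream start: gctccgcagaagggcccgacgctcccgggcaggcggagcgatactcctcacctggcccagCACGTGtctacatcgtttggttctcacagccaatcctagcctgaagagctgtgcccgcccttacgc
Bhlhe41: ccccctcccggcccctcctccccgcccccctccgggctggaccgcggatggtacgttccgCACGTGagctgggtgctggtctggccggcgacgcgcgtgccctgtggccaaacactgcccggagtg
Nr1d1: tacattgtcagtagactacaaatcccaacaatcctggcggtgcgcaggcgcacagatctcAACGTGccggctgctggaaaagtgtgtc
Dbp: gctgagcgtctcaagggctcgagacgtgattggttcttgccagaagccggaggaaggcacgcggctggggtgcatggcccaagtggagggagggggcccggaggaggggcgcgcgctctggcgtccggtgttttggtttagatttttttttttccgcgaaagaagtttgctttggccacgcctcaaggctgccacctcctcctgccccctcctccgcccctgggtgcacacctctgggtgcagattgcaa

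The motifs are common enough that a match is a description and not a site. Among 32851 mouse windows of the same length, 7.15% held CACGTG, 4.68% CACGTT, 2.61% TAGGTCA and 16.3% AGGTCA. The D-box letters TTANGTAA were in 2.32% of all windows and in 0 of the 9 member windows. In Nfil3 the matched letters ended 5 bases before the start.

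The values below are log2 RMA values, so that a difference of 1 is a doubling, and each difference is mutant minus control with the standard error from limma. A gene was called at an adjusted p under 0.05, adjusted by Benjamini and Hochberg over all 19938 genes. A probe set's level is set only against the same probe set on other arrays, never against another gene.

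The first question was how the clock output differs between kidneys labelled PpargΔ/Δ and their controls. In PpargΔ/Δ kidneys 5 of the 9 genes were called, Nfil3 higher and Dbp, Tef, Nr1d2 and Bhlhe41 lower, where 5.29% of all genes were called, 2.67% higher and 2.62% lower. The 4 others, Hlf, Nr1d1, Bhlhe40 and Rora, did not pass. The median difference of the 9 was -0.39, against -0.01 over all genes, and their median size 0.39, against 0.075. Arrays of the 2 groups did not overlap for the same 5 genes that were called, where 26.1% of all genes had no overlap.

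The second question was how it differs in kidneys of the fatless AZIP mice. In AZIP kidneys 1 of the 9 genes was called, Nfil3, which was higher, where 2.43% of all genes were called, 1.30% higher and 1.13% lower. The median difference of the 9 was -0.29, against 0.003 over all genes, and 8 of the 9 lay below 0. Arrays did not overlap for 5 of them, Dbp, Tef, Hlf, Nfil3 and Bhlhe40, where 22.5% of all genes had no overlap. The 2 comparisons share no array. Their calls are still not independent, because the spread of a gene was estimated from the 4 groups together.

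**Figure D1:**
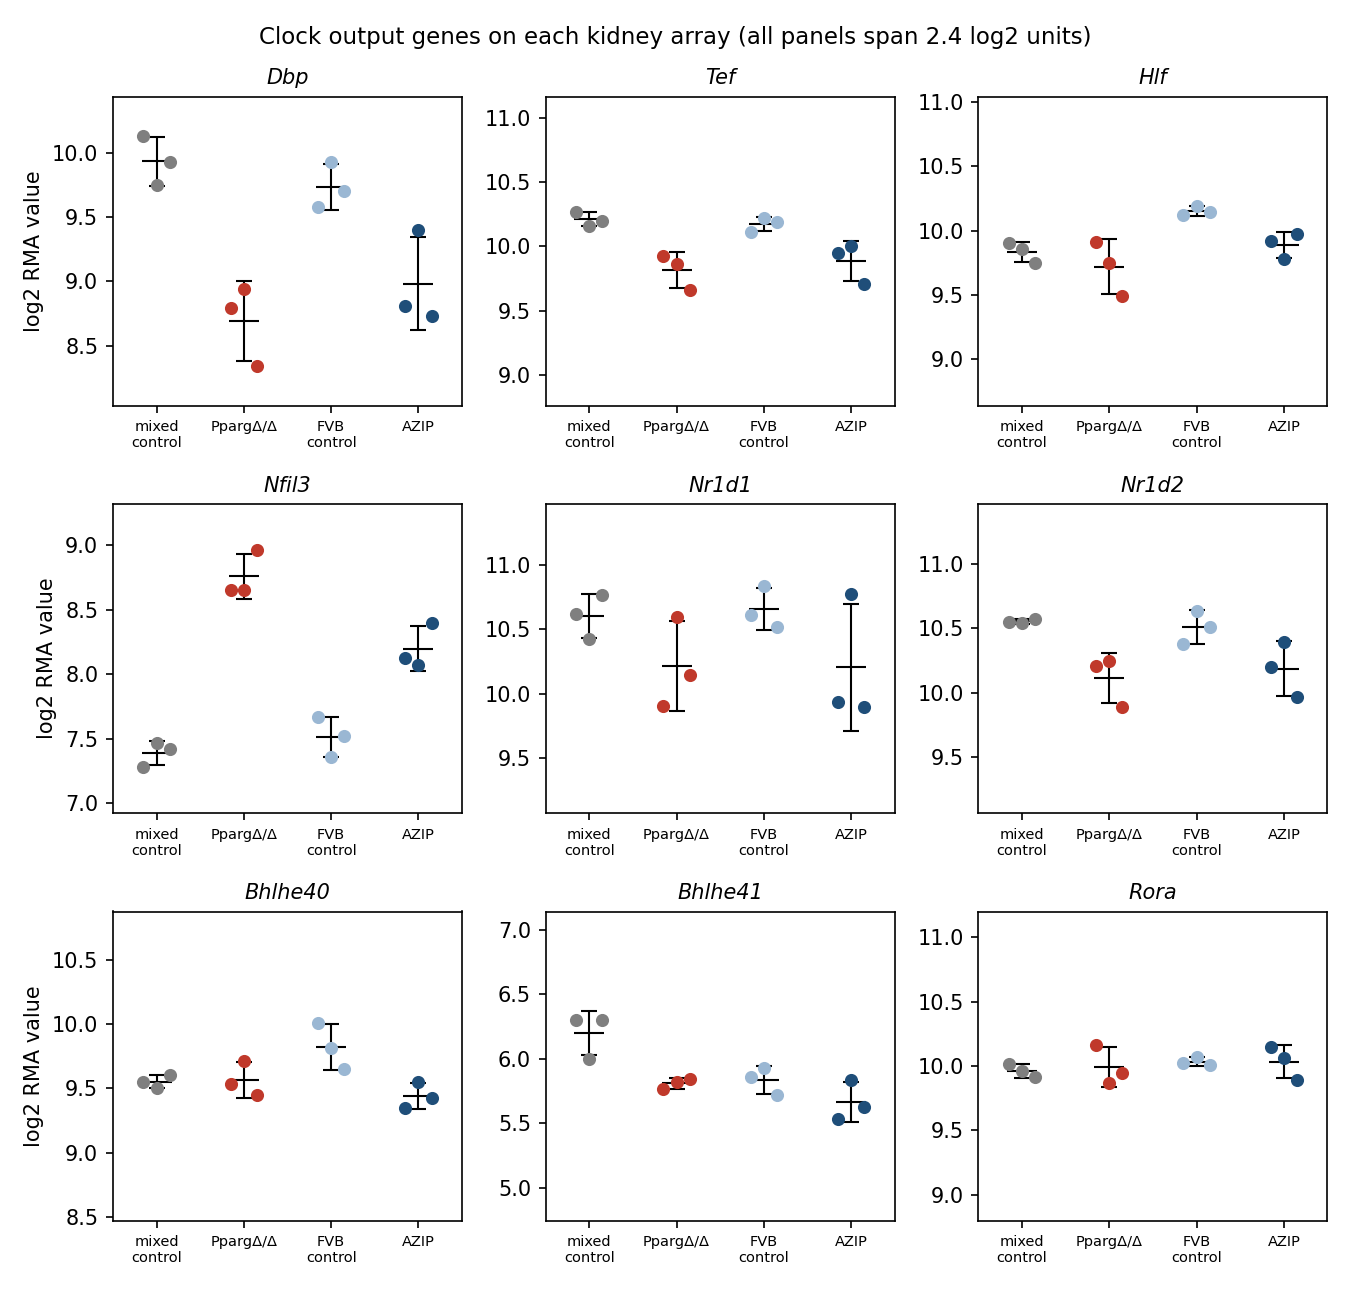
Log2 RMA value (vertical axis) of each of the 9 genes on each array, by group, with bars for the group mean ± SD (n = 3 pools of RNA); every panel spans the same height in log2. Dbp lies below both control groups in both mutants and Nfil3 above them, while Rora lies between 9.87 and 10.16 on all arrays.

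Dbp is the PAR bZIP activator with the widest daily swing in most tissues. It read 8.79, 8.94 and 8.34 in the PpargΔ/Δ pools and 10.13, 9.75 and 9.93 in their mixed controls. The AZIP pools read 8.81, 9.40 and 8.74, and the FVB controls 9.58, 9.93 and 9.70. All 6 mutant pools were below all 6 control pools. The difference was -1.24 ± 0.19 in PpargΔ/Δ, where the level was 2.36-fold lower (limma adjusted p = 0.00456), and it was called with any 1 of the 12 arrays left out (up to 0.0264). In AZIP it was -0.75 ± 0.19 (95% interval -1.16 to -0.34; limma adjusted p = 0.0595), short of the threshold. Without AZIP pool 2, the highest of its group, it was -0.96 (limma adjusted p = 0.0391), and it was also past the threshold without PpargΔ/Δ pool 3 (0.0447). Annotation places part of Sphk2 over the Dbp locus, and the sources used here do not give the strand that the probes read.

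Tef, the second PAR bZIP activator, varied less than Dbp in every group. It read 9.93, 9.86 and 9.66 in PpargΔ/Δ against 10.27, 10.16 and 10.20 in mixed controls, with no overlap. In AZIP it read 9.95, 10.001 and 9.71 against 10.11, 10.22 and 10.19 in FVB controls, again with no overlap. The difference of -0.39 ± 0.08 in PpargΔ/Δ was called (limma adjusted p = 0.0220). That call ended when pool 2 or pool 3 of PpargΔ/Δ, or any of the 3 mixed controls, was left out (limma adjusted p up to 0.0879). In AZIP the difference was -0.29 ± 0.08 (limma adjusted p = 0.103).

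Hlf, the third PAR bZIP activator, was at -0.12 ± 0.09 in PpargΔ/Δ (95% interval -0.32 to 0.082; limma adjusted p = 0.521). Its PpargΔ/Δ pools read 9.91, 9.75 and 9.49 and overlapped the mixed controls at 9.90, 9.86 and 9.75. In AZIP it was at -0.26 ± 0.09 (limma adjusted p = 0.167), with pools at 9.92, 9.78 and 9.97 all below the FVB controls at 10.12, 10.19 and 10.15. The FVB controls were the highest group for this gene, 0.32 ± 0.09 above the mixed controls (limma adjusted p = 0.0630).

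Nfil3 encodes the bZIP repressor that occupies the D-box in place of the PAR factors, and is also a regulator of lymphoid development. It read 8.66, 8.66 and 8.96 in PpargΔ/Δ and 7.28, 7.46 and 7.42 in mixed controls. The AZIP pools read 8.12, 8.07 and 8.40, and the FVB controls 7.66, 7.36 and 7.52. The lowest mutant pool lay above the highest control pool in both lines, and the lowest PpargΔ/Δ pool above the highest AZIP pool. The rise was 1.37 ± 0.11 in PpargΔ/Δ, or 2.59-fold (limma adjusted p = 0.000213), and was called with any 1 of the 12 arrays left out (up to 0.0019). In AZIP it was 0.68 ± 0.11, or 1.61-fold (limma adjusted p = 0.0128). The AZIP call ended without FVB control 2, the lowest control (0.61, limma adjusted p = 0.0551).

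Nr1d1 encodes REV-ERBα, a heme-binding receptor that represses Arntl. It read 9.90, 10.59 and 10.14 in PpargΔ/Δ against 10.62, 10.42 and 10.77 in mixed controls, and 9.94, 10.77 and 9.90 in AZIP against 10.61, 10.84 and 10.52 in FVB controls. In each mutant group pool 2 lay among the controls and the other pools below them. The differences were -0.39 ± 0.22 in PpargΔ/Δ (95% interval -0.88 to 0.097; limma adjusted p = 0.363) and -0.45 ± 0.22 in AZIP (-0.94 to 0.035; limma adjusted p = 0.349). Its spread within groups, an SD of 0.33, was at percentile 99.1 of all genes, and at that spread differences of this size did not pass. Without AZIP pool 2 the AZIP difference was -0.74 (limma adjusted p = 0.0763). Thra overlaps Nr1d1 on the annotation, and the signal of these genes could not be separated by strand here.

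Nr1d2 encodes REV-ERBβ, which shares the work of REV-ERBα. It read 10.21, 10.25 and 9.89 in PpargΔ/Δ against 10.55, 10.54 and 10.57 in mixed controls, with no overlap and with an SD of 0.018 among those controls. In AZIP it read 10.20, 10.39 and 9.97 against 10.38, 10.64 and 10.51 in FVB controls, where AZIP pool 2 reached just above the lowest control. The difference was -0.44 ± 0.11 in PpargΔ/Δ (limma adjusted p = 0.0462) and -0.32 ± 0.11 in AZIP (limma adjusted p = 0.166). The PpargΔ/Δ call ended with any 1 of the 6 arrays of that comparison left out (limma adjusted p up to 0.144). It also ended without AZIP pool 1 or any FVB control (up to 0.0652), and with only these 2 groups in the model (0.0539).

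Bhlhe41, the DEC2 repressor, read 5.76, 5.82 and 5.84 in PpargΔ/Δ against 6.30, 5.9996 and 6.30 in mixed controls. The difference of -0.39 ± 0.09 was called (limma adjusted p = 0.0364). It was not called without any 1 of the 3 PpargΔ/Δ pools, mixed control 1 or 3, or FVB control 1 (limma adjusted p up to 0.130), nor after repeated quantile normalization (0.0505). The call also ended with the replicate number as a block and with only these 2 groups in the model (limma adjusted p up to 0.0609). AZIP pools, at 5.54, 5.83 and 5.63, overlapped FVB controls at 5.86, 5.93 and 5.72 (-0.17 ± 0.09, limma adjusted p = 0.425). Bhlhe41 was the only member left out when genes under percentile 50 of mean expression were removed.

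Bhlhe40, the DEC1 repressor, which also responds to hypoxia and cytokines, was called in neither line. In PpargΔ/Δ it read 9.53, 9.72 and 9.45 against 9.55, 9.50 and 9.61, a difference of 0.01 ± 0.09 (limma adjusted p = 0.964) whose sign turned when arrays were shifted to equal medians (-0.0073). In AZIP it read 9.35, 9.55 and 9.43, all below the FVB controls at 10.01, 9.81 and 9.65. That difference was -0.38 ± 0.09 (limma adjusted p = 0.0554). It was past the threshold after repeated quantile normalization (0.0454), after a shift to equal medians (0.0444), or without FVB control 3 (0.0382). On the annotation 0610040F04Rik overlaps Bhlhe40, and their signal could not be separated by strand here.

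Rora encodes the ROR receptor that activates the genes REV-ERB represses. It read 10.16, 9.87 and 9.94 in PpargΔ/Δ against 10.01, 9.96 and 9.91, and 10.14, 10.06 and 9.90 in AZIP against 10.02, 10.07 and 10.01, overlapping in both lines. The differences were 0.03 ± 0.08 (95% interval -0.14 to 0.20; limma adjusted p = 0.887) and -0.0019 ± 0.079 (-0.18 to 0.17; limma adjusted p = 0.995). Each interval excludes a change of the size seen in Nfil3 or Dbp. On the annotation 5 genes overlap Rora, and their signal could not be separated by strand here. Of the other ROR genes Rorb was measured and was at -0.06 and 0.01 (limma adjusted p = 0.625 and 0.955).

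**Figure D2:**
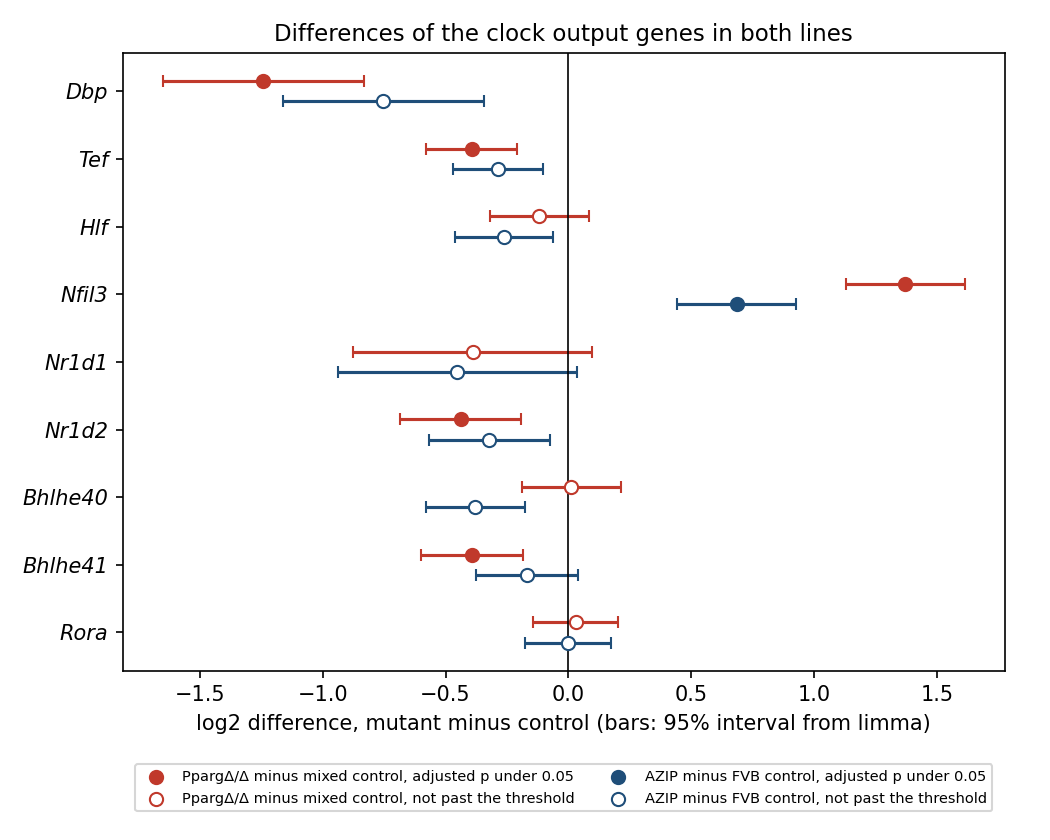
Log2 difference between mutant and control (horizontal axis) of each gene in PpargΔ/Δ (red) and AZIP (blue), with 95% intervals from limma; filled points passed an adjusted p of 0.05. Nfil3 is the only gene to the right of 0 beyond its interval in either line, and Dbp has the leftmost point in both.

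The effects in the 2 lines were then set against each other by the interaction term, the PpargΔ/Δ difference minus the AZIP difference. By limma 0 of the 9 genes passed, with 2 at an unadjusted p under 0.05, and 0.0201% of all genes were called. Nfil3 was higher by a further 0.69 ± 0.16 in PpargΔ/Δ (95% interval 0.35 to 1.03; limma adjusted p = 0.482). For Bhlhe40 the term was 0.39 ± 0.13 (0.11 to 0.68; limma adjusted p = 0.813) and for Dbp -0.49 ± 0.27 (-1.07 to 0.092; limma adjusted p = 0.877). A difference between the lines was therefore not called for any of the 9, although these intervals include large ones.

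Between the control groups, FVB against mixed C57BL6/SV129, 1 of the 9 genes was called, Bhlhe41, lower in FVB, where 7.22% of all genes were called, 3.50% higher and 3.72% lower. Arrays did not overlap for 3 of them, Hlf, Bhlhe40 and Bhlhe41, where 28.5% of all genes had no overlap. This comparison uses the same control arrays as the other comparisons. Bhlhe41 was at -0.37 ± 0.09 (limma adjusted p = 0.0373). The call ended without pool 2 or 3 of PpargΔ/Δ, mixed control 1 or 3, or any FVB control (limma adjusted p up to 0.137). Dbp was at -0.20 ± 0.19, Tef at -0.04 ± 0.08, Nfil3 at 0.13 ± 0.11, Nr1d1 at 0.05 ± 0.22 and Nr1d2 at -0.04 ± 0.11, all with overlapping arrays (limma adjusted p from 0.591 to 0.933). In order of group means, Dbp and Tef ran from PpargΔ/Δ through AZIP and FVB controls to mixed controls. For both genes the 2 mutant groups overlapped each other, the 2 control groups overlapped each other, and AZIP did not overlap FVB controls. For Nfil3 the order ran the other way, and there AZIP and PpargΔ/Δ did not overlap either.

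Pools of the same group also differed from each other, and there Dbp, Tef and Nr1d2 moved together and against Nfil3. AZIP pool 2 had the highest value of its group for 6 genes, Dbp, Tef, Nr1d1, Nr1d2, Bhlhe40 and Bhlhe41, and the lowest for Nfil3 and Hlf. AZIP pool 3 and PpargΔ/Δ pool 3 had the lowest Dbp, Tef and Nr1d2 and the highest Nfil3 of their groups. Among the FVB controls, pool 2 had the highest value for 7 of the 9 genes and the lowest Nfil3. Pool 2 of the mixed controls went the other way. It had the lowest value for 6 genes, Dbp, Tef, Nr1d1, Nr1d2, Bhlhe40 and Bhlhe41, and the highest Nfil3. Dbp varied within groups with an SD of 0.27 (percentile 98.4 of all genes) and Nfil3 with 0.15 (89.6).

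**Figure D3:**
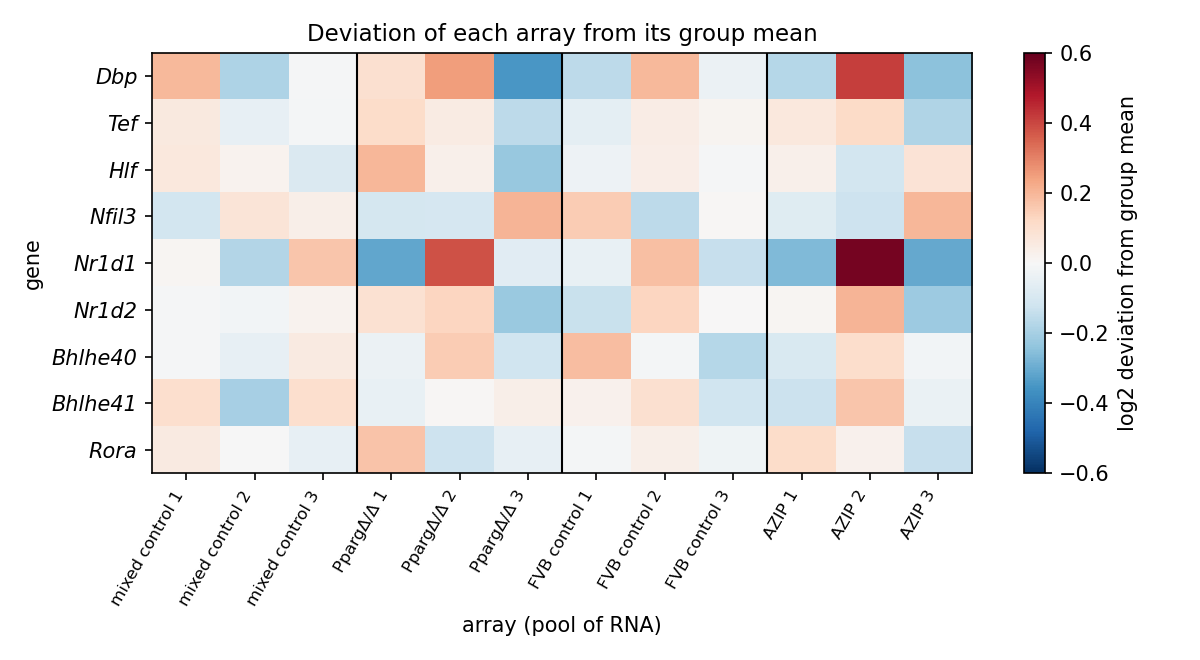
Deviation of each array from its group mean (colour, log2) for the 9 genes (rows) on the 12 arrays (columns, lines between groups). In AZIP 2, FVB control 2 and PpargΔ/Δ 2 the Dbp, Tef, Nr1d1 and Nr1d2 cells are above the group mean and Nfil3 is below it. In mixed control 2 these cells are below the group mean and Nfil3 is above it.

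These deviations from group means were correlated over the 12 arrays as a description, with the group differences removed; genes on 1 array share its RNA pool, so no test was made. Nfil3 ran against Dbp (Pearson r = -0.852, Spearman -0.867), Tef (-0.940, Spearman -0.853) and Nr1d2 (-0.916, Spearman -0.832). Dbp ran with Tef (r = 0.809, Spearman 0.755), Nr1d2 (0.883, Spearman 0.853) and Nr1d1 (0.745, Spearman 0.685). Without the 2 arrays whose Dbp deviation was largest, AZIP 2 and PpargΔ/Δ 3, Dbp had r = -0.822 with Nfil3, 0.697 with Tef, 0.785 with Nr1d2 and 0.688 with Nr1d1. Dbp and Hlf (r = 0.201) and Dbp and Rora (r = 0.215) moved together little. Of 36 pairs of members, 8 had an r of deviations beyond 0.7 in size. The share of all gene pairs beyond 0.7 was not computed, and Nr1d1 at 0.745 ranked 229 from the top for Dbp. Deviations sum to 0 in each group, so the 12 values carry only 8 degrees of freedom.

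**Figure D4:**
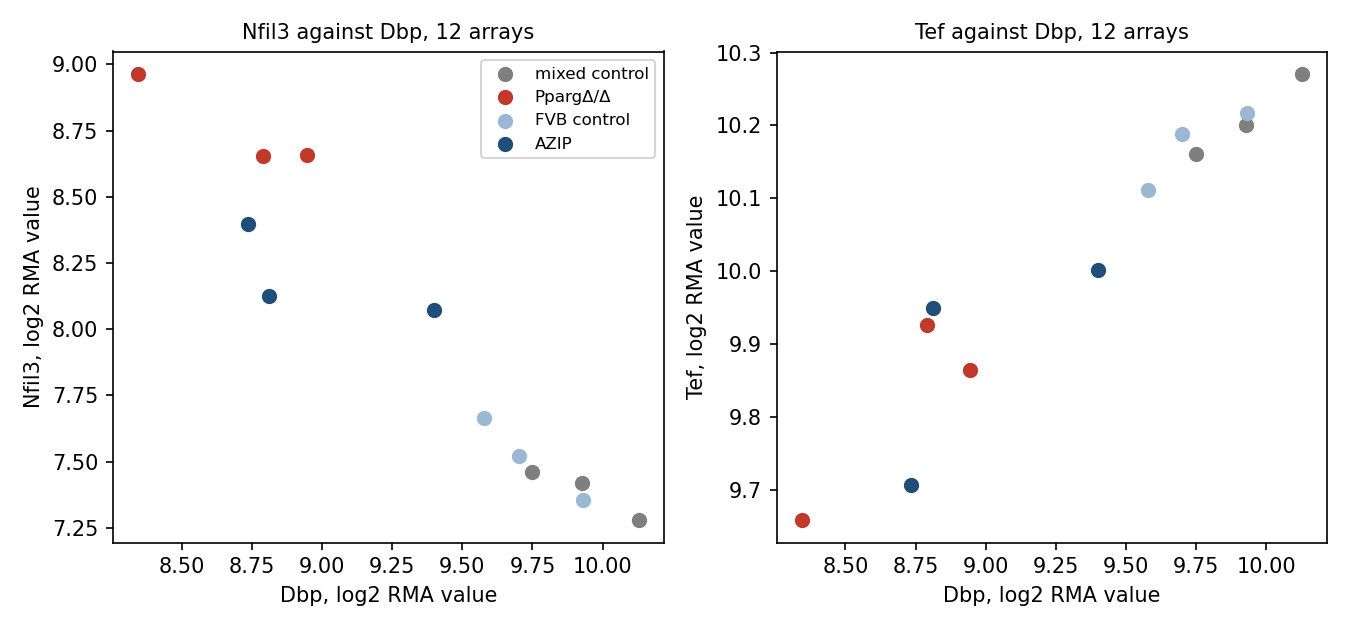
Nfil3 (left, vertical axis) and Tef (right, vertical axis) against Dbp (horizontal axis), log2 RMA values of the 12 arrays, coloured by group. Mutant pools lie at low Dbp with high Nfil3 and low Tef.

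By likeness over the 12 arrays, which mixes group differences with variation inside groups, Tef (r = 0.958) and Nr1d2 (r = 0.955) were the genes most like Dbp of all 19938, and Nfil3 (r = -0.957) the most opposed. By deviations from group means Nr1d2 ranked 14 and Tef 85 from the top for Dbp, and Nfil3 39 from the bottom. The next most like Dbp were Cog4 (0.950), a Golgi tethering subunit, Man1a (0.946), a mannosidase of glycan trimming, and Il10rb (0.932), a cytokine receptor chain. Those most opposed after Nfil3 were the glucose transporter gene Slc2a1 (-0.941), Dnajc5 (-0.940), Ahnak2 (-0.929) and Anxa8 (-0.923). Nfil3 was most like Dnajc5 (0.976), a synaptic vesicle co-chaperone, Scd2 (0.959), a fatty acid desaturase, Slc2a1 (0.957), Scnn1a (0.956), the sodium channel subunit, and Phf10 (0.949). It was most opposed to Dbp, then to Rab43 (-0.956), Msra (-0.954), Tll1 (-0.952) and the Fc receptor gene Fcamr (-0.950). With group means removed, r with Nfil3 was 0.480 for Slc2a1, 0.520 for Scnn1a, 0.546 for Scd2, 0.758 for Dnajc5 and 0.828 for Phf10. Of the genes opposed to Nfil3 it was -0.260 for Tll1, -0.588 for Rab43, -0.650 for Fcamr and -0.651 for Msra. With Dbp it was 0.841 for Cog4, 0.729 for Man1a and 0.610 for Il10rb, and from -0.638 (Dnajc5) to -0.569 (Anxa8) for the 4 opposed genes other than Nfil3.

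The core clock genes that drive the members were measured on the same arrays. Of 2 measured activators 1 was higher in each line and 0 lower. Arntl read 8.30, 8.41 and 8.70 in PpargΔ/Δ against 6.94, 6.77 and 6.84, and 8.51, 8.15 and 8.39 in AZIP against 7.69, 7.45 and 7.61, with no overlap in either line. Its differences were 1.62 ± 0.11 (limma adjusted p = 8.33e-05) and 0.77 ± 0.11 (limma adjusted p = 0.00924). Unlike Dbp and Nfil3, Arntl was also called between the controls, 0.73 ± 0.11 higher in FVB (limma adjusted p = 0.00202). Over the 12 arrays, group differences included, Arntl had r = -0.914 with Dbp, 0.892 with Nfil3 and -0.598 with Nr1d1. Clock was at 0.03 and 0.01 in PpargΔ/Δ and AZIP.

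Of 6 measured repressors (Per, Cry and Ciart genes) 1 was lower in PpargΔ/Δ and 1 higher in AZIP. Per3 fell in PpargΔ/Δ (-0.56 ± 0.13, limma adjusted p = 0.0351) and was at -0.31 ± 0.13 in AZIP (limma adjusted p = 0.278). Per1, which glucocorticoids and handling also induce, rose in AZIP (0.58 ± 0.10, limma adjusted p = 0.0186) and was at 0.29 ± 0.10 in PpargΔ/Δ (limma adjusted p = 0.133). Per2 was at -0.40 and 0.02, Cry1 at 0.31 and 0.41, Cry2 at 0.25 and 0.01, and Ciart at -0.43 and -0.09 in PpargΔ/Δ and AZIP, none past the threshold.

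Genes known as targets of the output factors moved in part. Of 9 measured PAR bZIP targets 4 fell and 0 rose in PpargΔ/Δ, and 1 fell and 0 rose in AZIP, with medians of -0.15 and 0.04. All 4 are acyl-CoA thioesterases, which release free fatty acids from CoA and are also targets of PPARα. They were Acot3 (-1.02 ± 0.16), Acot1 (-0.67 ± 0.14), Acot4 (-0.54 ± 0.06) and Acot2 (-0.50 ± 0.11), with limma adjusted p from 0.00164 to 0.0308. In AZIP Acot4 fell by the same amount (-0.54 ± 0.06, limma adjusted p = 0.00429), and Acot3 was at -0.59 ± 0.16 (limma adjusted p = 0.0779). The targets outside this family, Alas1, Nr1i3, Pdxk, Cyp7a1 and Cyp2b10, were not called in either line.

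Of 8 measured genes under REV-ERB and ROR control 3 rose and 1 fell in PpargΔ/Δ, and 2 rose and 0 fell in AZIP, with medians of 0.15 and 0.11. Besides Arntl, the coactivator gene Ppargc1a rose in both lines (0.28 ± 0.05 and 0.26 ± 0.05, limma adjusted p = 0.00878 and 0.0202). The glucose-6-phosphatase gene G6pc rose in PpargΔ/Δ (0.38 ± 0.07, limma adjusted p = 0.0102), and Apoc3, an apolipoprotein that slows lipolysis of plasma triglyceride, fell (-0.49 ± 0.12, limma adjusted p = 0.0360). Cry1, Insig2, Elovl3 and Clock were not called.

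Among 9 genes rhythmic in many tissues 0 rose and 1 fell in PpargΔ/Δ, and 1 rose and 1 fell in AZIP. The glycogen synthase gene Gys2 fell in both (-0.62 ± 0.12 and -0.56 ± 0.12, limma adjusted p = 0.0169 and 0.0419), and the glucocorticoid-induced Tsc22d3 rose in AZIP (0.60 ± 0.10, limma adjusted p = 0.0120). Of 9 kidney transport genes linked to the clock 3 rose in PpargΔ/Δ and 1 in AZIP, and 0 fell in either. Edn1, which encodes endothelin-1, rose in both (0.85 ± 0.08 and 0.77 ± 0.08, limma adjusted p = 0.000509 and 0.00309). Scnn1a (0.35 ± 0.05) and the water channel Aqp2 (0.48 ± 0.10) rose in PpargΔ/Δ (limma adjusted p = 0.00527 and 0.0220). Of 7 kinases and ubiquitin ligases that act on clock proteins 0 were called in PpargΔ/Δ and 1, Fbxl21, fell in AZIP (-0.55 ± 0.09, limma adjusted p = 0.0150).

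Other measures moved with the same groups, and their part in the clock differences was not tested. Of 12 measured glucocorticoid-responsive genes, 6 rose in each line and 0 fell. Ddit4 (1.45 and 1.54 in PpargΔ/Δ and AZIP), Zbtb16 (0.97 and 0.84), Fkbp5 and Klf15 were called in both lines. Mt1 and Mt2 were called in PpargΔ/Δ only, and Per1 and Tsc22d3 in AZIP only. The mean level of the 12 genes did not overlap between mutants and controls. It was 11.10 to 11.22 in PpargΔ/Δ against 10.65 to 10.68, and 11.09 to 11.25 in AZIP against 10.47 to 10.77. Of 16 immediate early genes, which respond to handling, 3 rose in PpargΔ/Δ and 1 in AZIP, and their mean levels did not overlap either (7.83 to 8.06 against 7.61 to 7.75, and 7.81 to 7.84 against 7.59 to 7.71). Dusp1 is on both of these lists. Of 10 hypoxia-responsive genes Slc2a1 and Pdk1 rose in both lines, and mean levels overlapped in both. Mean levels also did not overlap in either line for core clock activators, REV-ERB and ROR targets, and clock-linked kidney transport genes. Arntl and Clock are on both the activator list, which holds no other measured gene, and the list of REV-ERB and ROR targets. Arntl had the largest rise on each of them, at 1.62 in PpargΔ/Δ and 0.77 in AZIP. Means of the targets without Arntl were not computed, so their separation does not show that the targets moved as a set. REV-ERB and ROR targets ran from 9.25 to 9.33 against 9.04 to 9.06 in PpargΔ/Δ. In AZIP they ran from 9.23 to 9.35 against 9.13 to 9.16. Every other list overlapped in at least 1 line. How often lists of unrelated genes show no overlap was not computed. In whole tissue fewer cells of a type and less RNA per cell cannot be told apart.

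The 12 measured nephron markers had a mean level between 11.34 and 11.49 on all arrays. Of them 1, Aqp2, was called in PpargΔ/Δ and 0 in AZIP. Their steady mean hides shifts in both directions, with 5 markers above 0 and 7 below in each line. They ran from -0.57 (Slc22a6) to 0.48 (Aqp2) in PpargΔ/Δ, and from -0.39 (Slc5a2) to 0.25 (Aqp2) in AZIP. Umod was near 13.1 in all groups. Of 7 fat markers 0 were called in either line, and all 7 lay below 0 in PpargΔ/Δ, where their mean level was 6.20 to 6.31 against 6.42 to 6.63 in mixed controls without overlap. In AZIP it was 6.45 to 6.75 against 6.53 to 6.57. The adiponectin gene Adipoq read a mean of 4.32 and 4.45 in PpargΔ/Δ and its controls, and 4.46 and 4.47 in AZIP and FVB. Of 7 adrenal markers Mc2r (0.42) and of 3 red blood cell markers Epb42 (0.34) were called in PpargΔ/Δ, and 0 of either list in AZIP. Mc2r read a mean of 4.72 in PpargΔ/Δ and 4.30 in its controls. The adrenal list as a whole did not move with it: 4 of the 7 lay below 0 in PpargΔ/Δ, with a median of -0.007. Hsd3b1 was also higher there without overlap, at 0.46, but was not called (limma adjusted p = 0.254). In AZIP Hsd3b1 was at 0.36 and Mc2r at 0.32 (limma adjusted p = 0.451 and 0.0932). There 4 of the 7 lay above 0 and 3 below, with a median of 0.04.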

How the data were processed

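The authors deposited log2 values from RMA, made in Expression Console (Affymetrix); this comes from the submitters' processing notes, and its version, settings and genome build are not given in the labels used here. RMA corrects background, normalizes across arrays and summarises probes per probe set. Array medians ranged from 7.17 to 7.21, and the mean r of an array with the others of its group from 0.996 to 0.998. The medians were slightly higher in the mutants without overlap in both lines. They were 7.199 to 7.207 in PpargΔ/Δ against 7.180 to 7.186, and 7.187 to 7.206 in AZIP against 7.171 to 7.182. The number of arrays, 3 pools a group, limits the precision.

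The platform table gave 1 gene symbol for 21789 of 35556 probe sets, several for 1621 and none for 12146. Symbols were updated by Entrez number from RefSeq (21698 updated, 91 kept), and the probe set with the highest mean was kept, leaving 19938 genes. A model of the 4 group means over every array was run in limma 3.58.1 (R 4.3.3), with 3.71 prior and 8 residual degrees of freedom, and the script was tested on simulated data. Genes named beside the 9 members were those with the smallest p, up to 4 per list and line, among called genes of 15 lists, and the 5 genes most and least correlated with Dbp or Nfil3, predicted genes left out. Some further list members are given with their values, including uncalled ones, which were chosen after their values were seen. The members and lists were chosen with earlier results of these data known. Alternatives were repeated quantile normalization, a shift to equal medians, a filter at percentile 50, a mean over each gene's probe sets, a fit of the compared groups alone, a trended variance prior, the replicate number as a block, an adjusted p under 0.10, and each array left out.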

Additional observations from a re-analysis of the deposited data

How the results depend on the processing

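In PpargΔ/Δ against mixed control the count of 5 called members was 3 with only the groups of the contrast in the fit, and 2 to 5 with 1 array left out. It also fell when Bhlhe41 lost its call after repeated quantile normalization or with the replicate number as a block. The filter at percentile 50 removed Bhlhe41. The count of 1055 called genes was 607 with only those groups, 1938 at an adjusted p under 0.10, and 330 to 1220 with 1 array left out, the lowest without mixed control 1. A shift to equal medians gave 436 higher and 694 lower against 532 and 523. In AZIP against FVB control the count of 1 member was 2 after quantile normalization or a shift to equal medians, 3 with the filter at percentile 50, a variance trend or an adjusted p under 0.10, and 0 to 2 with 1 array left out. It was 0 by limma without FVB control 2, where 5 members had an unadjusted p under 0.05, and 2 without PpargΔ/Δ 3, AZIP 2 or FVB control 3. The count of 485 genes was 836 with the filter, 162 with only those groups, 785 with the trend, 1035 at 0.10, and 62 to 606 with 1 array left out, the lowest without FVB control 1. A shift to equal medians gave 203 higher and 326 lower against 260 and 225. For the difference of the effects the count of members was 0 by limma in every alternative run, with 2 or 3 at an unadjusted p under 0.05. The count of 4 genes was 1 with the filter, 7 at 0.10, and 0 to 9 with 1 array left out. Between controls the count of 1 member was 2 with the trend or at 0.10, and 0 to 2 with 1 array left out, and that of 1439 genes 852 to 1596.

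Deviations of same-numbered arrays correlated at 0.184, 0.179 and 0.00863 in PpargΔ/Δ and its controls, and at -0.0364, -0.103 and -0.00987 in AZIP and FVB. These low values do not settle whether the replicate number marks a pairing or a batch. With the replicate number as a block, 694 genes were called in AZIP against 485 without it, and 1102 in PpargΔ/Δ against 1055. With the replicate number as a block the count of called members was 2 in AZIP, where Dbp had a limma adjusted p of 0.0425, and 0 between controls by limma, where 3 had an unadjusted p under 0.05. Under the block Bhlhe41 in PpargΔ/Δ had a limma adjusted p of 0.0581, and the difference of the effects called 1 gene.

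Signs turned only for members near 0. Bhlhe40 in PpargΔ/Δ was at -0.0033 after quantile normalization and -0.0073 after the shift, and at -0.064 to 0.070 with 1 array left out. Rora in AZIP was at 0.0020 after quantile normalization, and with 1 array left out at -0.058 to 0.067, and at -0.058 to 0.091 in PpargΔ/Δ. The difference of the effects ran from -0.056 to 0.093 for Rora and from -0.13 to 0.35 for Nr1d1, and between controls Nr1d1 ran from -0.038 to 0.14 and Nr1d2 from -0.11 to 0.021. Of the other values of members under alternatives, 636 kept their direction and their side of the threshold, 35 fell short of it, and 18 passed it.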
